A study of Mus musculus with 16 samples.

Results

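The 6 genes described here, Nr2f1, Nr2f2, Nr2f6, Nr6a1, Nr5a2 and Nr0b1, encode orphan members of the nuclear receptor family and were chosen by gene symbol. They hold 10 of the 33702 RefSeq transcripts in the deposited table, which covers 24158 genes. All 6 genes, and 9 of the 10 transcripts, were above 0 in at least 1 library. The RNA came from embryoid bodies (EBs), aggregates of R1 mouse embryonic stem (ES) cells that had been grown for 4 days without Lif. Day 0 is the day on which retinoic acid (RA) was added, and day 4 followed 4 days in 2 µM RA. The procedure was carried out on 2 occasions, which gave 2 RNA samples per day, and each RNA sample was divided into 4 vials that received in vitro transcribed (IVT) spike-in mix 1, 2, 3 or none (called mix 4). The External RNA Controls Consortium (ERCC) mix 1 was added with IVT mixes 1 and 3, and ERCC mix 2 with IVT mix 2 and mix 4. The result is 16 libraries from 4 RNA samples. No EBs kept without RA until day 4 are among these samples, so RA and the additional time in culture cannot be told apart.

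Nuclear receptors are transcription factors with a zinc finger domain that recognises the hexamer AGGTCA, alone or as a repeat, and orphan members are those named before any natural ligand was known. Nr6a1 (germ cell nuclear factor) is known to repress Pou5f1, the gene of the pluripotency factor Oct4, when ES cells differentiate. Nr2f1 and Nr2f2 (COUP-TFI and COUP-TFII) are known as RA-induced, mostly repressive factors in embryonic development, and Nr2f6 is their close relative. Nr5a2 (LRH-1) activates Pou5f1 in ES cells and epiblast and is also a factor of liver and visceral endoderm. Nr0b1 (DAX1) lacks the zinc fingers of the family and acts as a corepressor, among others of Nr5a receptors, and is known to be expressed in undifferentiated ES cells.

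Promoter sequences are shown for Nr2f2 and for the downstream start of Nr6a1, as members that changed between the days, and for Pou5f1, the known target of Nr6a1 and Nr5a2. They are the 250 bases before the start of a RefSeq gene model (GRCm38.p6), written 5′ to 3′ along the strand of the gene and ending at position -1. Capitals mark AGGTCA on that strand or, read on the other strand, TGACCT. Nr6a1 has an upstream start and a downstream start that lies within the gene. The windows of Nr2f1 and of the upstream start of Nr6a1 were searched but are not printed. In GENCODE the transcript paired with NM_010151 of Nr2f1 begins upstream of its windows, at 78199757. That paired with NM_010264 of Nr6a1 begins downstream of its window, at 38926217.
Nr2f2, chr7:70366747-70366996 (minus strand): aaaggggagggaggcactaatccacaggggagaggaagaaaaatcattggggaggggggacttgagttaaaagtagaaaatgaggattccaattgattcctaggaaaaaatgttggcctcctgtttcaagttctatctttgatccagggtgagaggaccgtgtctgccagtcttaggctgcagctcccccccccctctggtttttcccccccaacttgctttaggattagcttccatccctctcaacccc
Nr6a1, downstream start, chr2:38784516-38784765 (minus strand): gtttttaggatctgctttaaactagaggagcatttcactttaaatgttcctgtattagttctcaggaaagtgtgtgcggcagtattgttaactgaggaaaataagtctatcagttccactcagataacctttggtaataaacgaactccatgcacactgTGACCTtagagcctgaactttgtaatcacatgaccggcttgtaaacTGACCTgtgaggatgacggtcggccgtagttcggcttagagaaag
Pou5f1, chr17:35505782-35506031 (plus strand): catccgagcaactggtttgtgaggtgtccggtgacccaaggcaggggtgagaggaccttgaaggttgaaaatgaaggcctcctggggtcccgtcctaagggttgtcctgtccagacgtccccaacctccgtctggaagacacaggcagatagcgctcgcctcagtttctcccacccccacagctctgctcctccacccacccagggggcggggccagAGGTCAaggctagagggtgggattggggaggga
The downstream promoter of Nr6a1 holds the hexamer on the opposite strand at -91 and at -45, counted at the first base of the match. That of Pou5f1 holds it at -33 on its own strand. No match was found in the windows of Nr2f1, in that of the upstream start of Nr2f2 or in the upstream window of Nr6a1. The downstream start of Nr2f2, that of NM_009697, was not searched. Among the other members, the window of Nr0b1 holds the hexamer at -126 and that of the upstream start of Nr5a2, which belongs to NM_030676, at -64, and that of Nr2f6 holds none. Of 32841 mouse promoters of the same length, 14.03% hold AGGTCA on either strand. The longer motif TCAAGGTCA, which contains it, was found in 0.387% of promoters. A direct repeat of exact copies of the hexamer with 0 to 5 bases between them was found in 0.0792%. Neither was found in the windows of the members and Pou5f1. Repeats with a mismatch in a copy were not searched. The match of Pou5f1 is followed directly by aggcta, which differs from the hexamer and was not counted as a copy. A match is a property of the letters and does not show binding.

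Values are FPKM (fragments per kilobase of transcript, scaled to library depth) as deposited, summed over the transcripts of a gene. Tests used limma on log2(FPKM + 0.1) after averaging the 4 vials of an RNA, 2 RNA samples against 2, with Benjamini-Hochberg adjustment over 20490 genes. A gene is called at an adjusted p of at most 0.05. An exact two-sided permutation test of 2 against 2 cannot go below p = 0.333, so the calls rest on the spread that limma shares between genes. The offset of 0.1 makes differences of genes near 0 smaller than the ratio of their FPKM. The table does not give the number of fragments behind a value.

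The mix 3 and mix 4 vials of RNA 2 of day 0 stood apart. Their log2 profiles correlated with the other vials of the same RNA at r from 0.909 to 0.943 across transcripts, and at 0.983 with each other, while all other pairs of vials of the same RNA lay between 0.979 and 0.987. The libraries also differed in how the level depended on the GC content of the transcript. In the bin of highest GC content (a median of 60.8%), transcripts of RNA 1 of day 0 lay 1.74 to 1.98 above their mean over all libraries on the log2 scale. The mix 1 and mix 2 vials of RNA 2 of day 0 lay 1.33 and 0.69 above it, the mix 3 and mix 4 vials of that RNA deviated by -1.78 and -1.46, and the day 4 vials by -0.21 to -1.12. Outside those 2 vials, every day 0 library lay above every day 4 library in this bin, while those 2 lay below all of day 4. In the same 2 vials Nr2f1, Nr2f2 and Nr6a1 were at the levels of day 0 and Nr2f6 was not, as given with each gene. Values after a correction for GC content are given where they change the call of a named gene. The median log2 difference of genes of at least 1 FPKM was -0.15 as deposited and 0.12 after rescaling each library to the same sum.

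**Figure D1:**
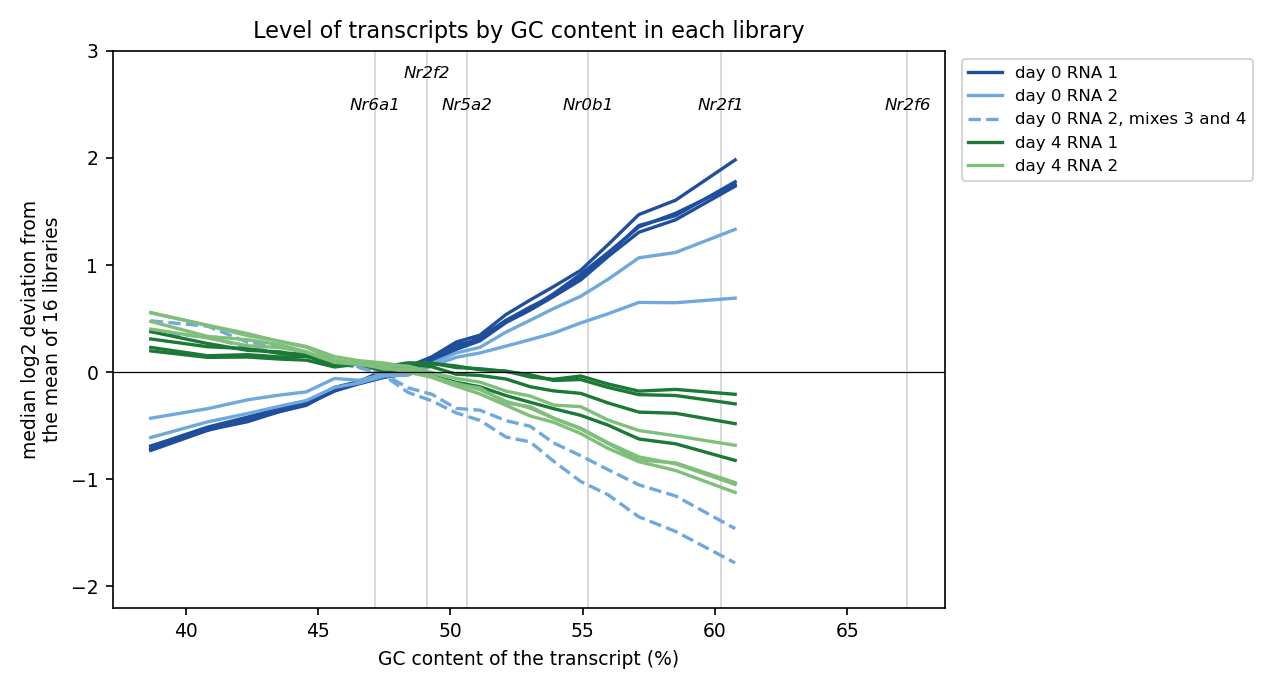
Median log2 deviation of transcripts from their mean over the 16 libraries (vertical axis) in 20 bins of GC content in percent (horizontal axis), 1 line per library, with the GC content of 1 transcript of each receptor gene marked in grey. The lines of day 0 rise with GC content except those of the mix 3 and mix 4 vials of RNA 2 (dashed), which fall like those of day 4, and Nr2f6 lies beyond the highest bin at 67.3%.

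Of the 6 receptors, Nr2f1 and Nr2f2 rose, Nr6a1 fell, and Nr2f6, Nr5a2 and Nr0b1 were not called. Over all genes, 16% were called higher and 14.5% lower at day 4. At day 0 the order of levels was Nr6a1 at 13.6 ± 1.15 FPKM (SD, n = 2 RNA samples), Nr2f6 at 5.16 ± 3.10, Nr5a2 at 1.33 ± 0.0969, Nr0b1 at 0.245 ± 0.00866, Nr2f2 at 0.113 ± 0.0136 and Nr2f1 at 0.0708 ± 0.00813. At day 4 it was Nr2f2 at 67.3 ± 7.28 FPKM, Nr2f1 at 18.3 ± 2.88, Nr2f6 at 3.46 ± 0.822, Nr6a1 at 2.77 ± 0.0884, Nr5a2 at 2.17 ± 0.0615 and Nr0b1 at 0.233 ± 0.0230. The pair of receptors that was lowest at day 0 was therefore highest at day 4. At day 4 the means of Nr2f6 and Nr6a1 lay closer together than 1 SD of Nr2f6. At day 0 the RNA sample means of neighbours did not overlap, but single vials did so between Nr2f6 and Nr5a2, Nr0b1 and Nr2f2, and Nr2f2 and Nr2f1. Among all tested genes Nr6a1 exceeded 74.4% at day 0 and 55.5% at day 4, whereas Nr2f2 exceeded 30.3% at day 0 and 94.4% at day 4. In these bulk samples, fewer cells expressing a gene and less RNA of it per cell cannot be told apart.

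**Figure D2:**
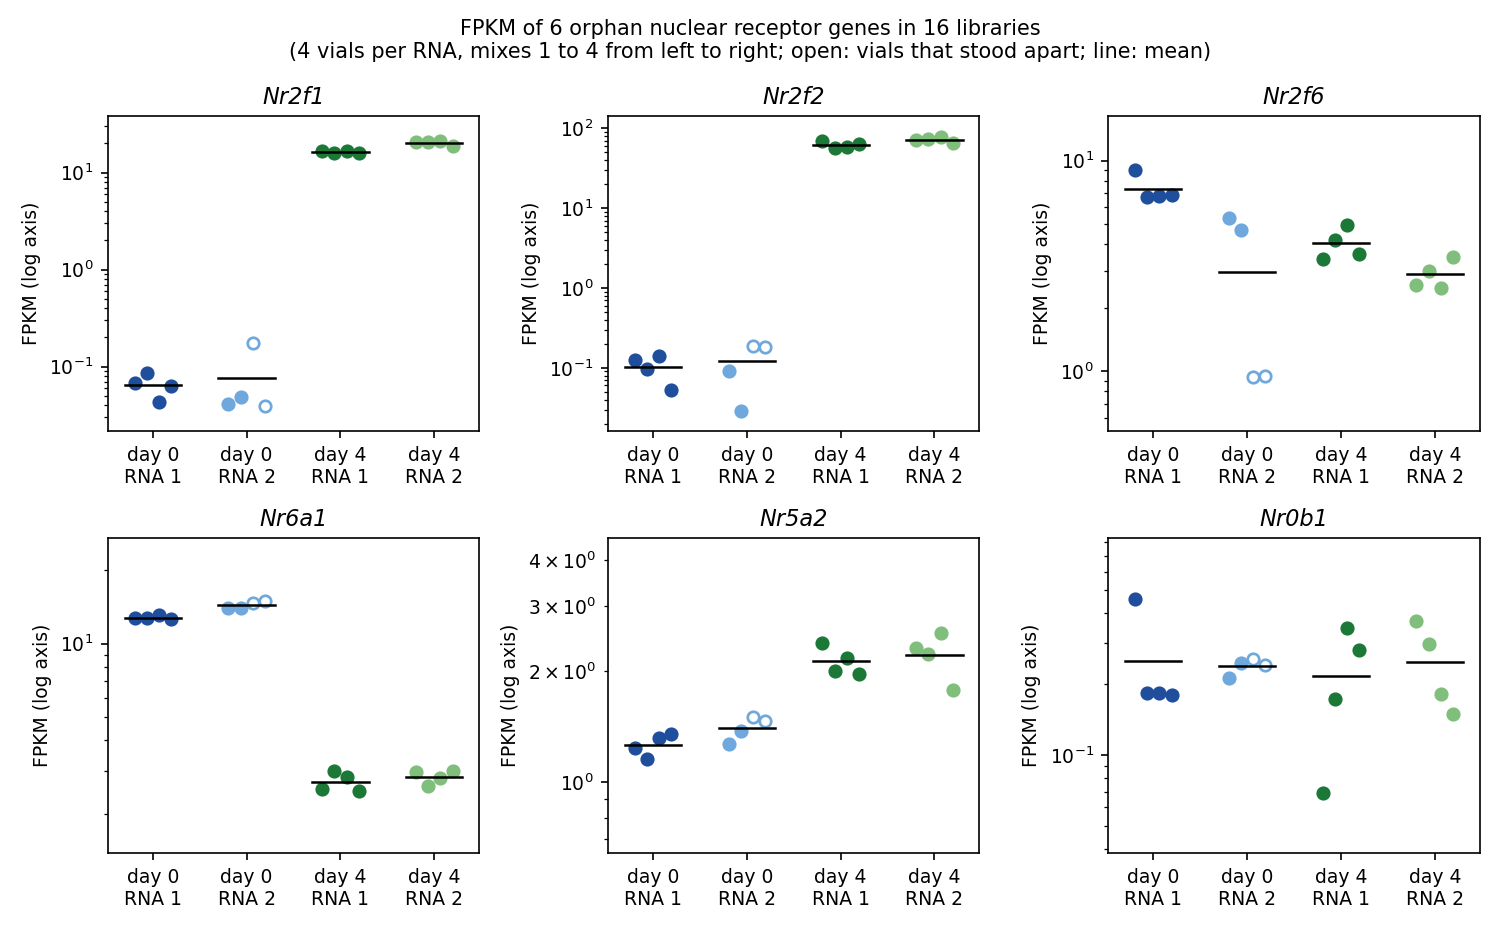
FPKM (vertical log axes, 1 panel per gene) of the 6 receptor genes in the 16 libraries, grouped by RNA sample (horizontal axis), with the 4 vials of an RNA as points, their mean as a line and the mix 3 and mix 4 vials of RNA 2 of day 0 as open circles. Nr2f1 and Nr2f2 lie below 0.19 FPKM in all day 0 libraries and above 15 FPKM in all day 4 libraries, Nr6a1 moves the other way without overlap, and the open circles leave the other vials of their RNA for Nr2f6.

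Nr2f2 lies on chromosome 7 (70351946 to 70366746, GRCm38). In the vials of day 0 it was measured at 0.124, 0.097, 0.140 and 0.053 FPKM in RNA 1 and at 0.091, 0.029, 0.187 and 0.184 FPKM in RNA 2, in the order of mixes 1 to 4. At day 4 the values were 68.8, 57.4, 59.2 and 63.3 FPKM in RNA 1 and 72.2, 73.5, 78.7 and 65.3 FPKM in RNA 2. All vials of day 0 were below 0.2 FPKM and all vials of day 4 above 57 FPKM. The log2 difference was 8.30 (SE 0.21, adjusted p = 0.00456, limma), the 3rd highest of 20490 genes. Nr2f1, on chromosome 13 (78188971 to 78198873), ranked as number 17 with a log2 difference of 6.74 (SE 0.25, adjusted p = 0.00456). Its day 0 vials held 0.068, 0.086, 0.043 and 0.063 FPKM in RNA 1 and 0.041, 0.049, 0.177 and 0.039 FPKM in RNA 2. Its day 4 vials held 16.52, 15.98, 16.66 and 15.84 FPKM in RNA 1 and 20.8, 20.6, 21.1 and 18.8 FPKM in RNA 2. At day 4 every vial of RNA 2 was above every vial of RNA 1 for Nr2f1, while for Nr2f2 the RNAs overlapped.
Since both genes were near 0 at day 0, the offset sets much of the size of their differences. With an offset of 1 the log2 difference was 5.94 for Nr2f2 and 4.16 for Nr2f1. The difference remained but was not called where 1 RNA of day 4 was left out (adjusted p from 0.0764 to 0.0827 for both genes), a setting in which no gene at all was called.

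Nr2f2 is represented by 2 RefSeq transcripts with different starts, and the promoter printed above belongs to NM_183261, which begins upstream. At day 4, NM_183261 carried most of the gene, with 65.0 ± 6.95 FPKM (SD, n = 2), and NM_009697 was at 2.33 ± 0.329 FPKM. The shares were 96.6% and 3.4% of the gene in RNA 1 and 96.5% and 3.5% in RNA 2. At day 0 both were at most 0.187 FPKM in any vial, NM_183261 being listed at 0 in 3 and NM_009697 in 4 of 8 vials, so a share at that day has no meaning. On their own, NM_183261 rose by 8.60 (SE 0.29, adjusted p = 0.0155) and NM_009697 by 4.09 (SE 0.34, adjusted p = 0.0159), where 10.2% of 28213 transcripts were called higher and 8.67% lower. Neither was called without RNA 1 of day 0 (8.34, adjusted p = 0.0508, and 4.30, adjusted p = 0.0556), with the mix 4 vials alone (8.40, adjusted p = 0.0509, and 4.16, adjusted p = 0.0618), or without 1 RNA of day 4 (8.49 to 8.71 and 3.95 to 4.23, adjusted p from 0.128 to 0.157). In a limma test of unequal change (diffSplice), the rise of NM_183261 exceeded that of NM_009697 by 4.51 on the log2 scale (adjusted p = 0.00229). Since both were near 0 at day 0, this value mainly follows their levels at day 4. It cannot show that the use of the transcripts changed between the days. In that test 10.3% of 12135 transcripts were called. The test gives the transcripts of a gene a common spread. On simulated data in which their spreads differed and 200 of 12135 transcripts changed, 29.5% of its calls were false, more than the adjusted p allows. More transcripts were called in the data, and the false share was not computed for other numbers of changed transcripts. Without 1 RNA of day 4 the difference was 4.48 or 4.54 and was not called. A limma fit with a spread for each transcript did not call it either (adjusted p of 0.0954 for NM_009697 and 0.0871 for NM_183261). That fit recovered none of the changes in simulated data.

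Nr6a1 lies on chromosome 2 (38723369 to 38926461) and was the highest of the 6 receptors at day 0. The vials of day 0 gave 12.7, 12.7, 13.1 and 12.7 FPKM in RNA 1 and 13.98, 14.04, 14.64 and 15.02 FPKM in RNA 2. At day 4 they gave 2.53, 2.98, 2.84 and 2.48 FPKM in RNA 1 and 2.96, 2.59, 2.79 and 2.99 FPKM in RNA 2. The days did not overlap, and the mean was 4.91-fold lower at day 4. The log2 difference was -2.25 (SE 0.18, adjusted p = 0.00659), number 1084 from the lowest of 20490 genes. The vials that stood apart were above the others of their RNA by 0.08 on the log2 scale. Without either RNA of day 4 the difference was -2.22 or -2.29 with an adjusted p of 0.123 and 0.135.
Pou5f1, whose repression in differentiating cells is the known role of Nr6a1, was measured at 87.3 FPKM in RNA 1 and 37.2 FPKM in RNA 2 of day 0, and day 4 gave 1.04 FPKM in RNA 1 and 0.693 FPKM in RNA 2, with a log2 difference of -5.91 (SE 0.50, adjusted p = 0.00735). Nanog, another pluripotency factor, went from 6.23 ± 0.302 to 1.26 ± 0.153 FPKM (log2 difference -2.23, SE 0.22, adjusted p = 0.00935). Nr6a1 transcripts were thus lower at the day on which those of Pou5f1 and Nanog were lower.

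The 3 RefSeq transcripts of Nr6a1 were distributed less evenly than the gene total. NM_010264 begins at the upstream start, and NM_001159548 and NM_001159549 both correspond to 1 GENCODE transcript that begins at the downstream start. NM_010264 was measured at 8.07, 5.54, 7.22 and 5.52 FPKM in RNA 1 of day 0 and at 4.19, 4.72, 0.541 and 1.55 FPKM in RNA 2. Its lowest values at day 0 were those of the vials that stood apart. At day 4 it lay between 0.233 and 0.738 FPKM, and its log2 difference was -3.02 (SE 0.53, adjusted p = 0.0395). NM_001159549 lay between 3.40 and 5.54 FPKM at day 0 and between 0.284 and 1.26 FPKM at day 4, with a log2 difference of -2.37 (SE 0.26, adjusted p = 0.0200). NM_001159548 was at 0, 1.595, 1.905 and 2.188 FPKM in RNA 1 of day 0, at 4.53, 5.64, 10.7 and 9.17 FPKM in RNA 2, and between 0.937 and 1.95 FPKM at day 4. It was not called (log2 difference -1.05, SE 0.88, adjusted p = 0.424). Without RNA 1 of day 0, NM_010264 and NM_001159549 were not called either (-2.40, adjusted p = 0.0642, and -2.27, adjusted p = 0.0607), nor were they without 1 RNA of day 4 (-3.12 to -2.92 and -2.44 to -2.29, adjusted p from 0.196 to 0.286). NM_010264 was also not called with a pseudocount of 1, with log2 values averaged over vials, or with the ERCC mix 1, ERCC mix 2 or mix 4 vials alone (-3.28 to -1.89, adjusted p from 0.0627 to 0.341), and NM_001159549 was not called with the ERCC mix 2 or mix 4 vials alone (-2.39 and -2.03, adjusted p of 0.0556 and 0.101).
NM_010264 made up 51.5% of Nr6a1 in RNA 1 and 19.1% in RNA 2 of day 0, and 14.9% and 16.8% at day 4. NM_001159548 made up 11.1% and 52.1% at day 0, and 54.4% and 57.0% at day 4. The RNA samples of day 0 therefore differed from each other in these shares by more than RNA 2 differed from those of day 4. Within RNA 2 of day 0, the share of NM_010264 was 29.9% and 33.6% in the mix 1 and mix 2 vials and 3.70% and 10.3% in the mix 3 and mix 4 vials. No transcript of Nr6a1 passed the test of unequal change (adjusted p of 0.260, 0.869 and 0.370 for NM_001159548, NM_001159549 and NM_010264). Without the vials that stood apart, NM_001159548 was called (log2 difference relative to the other transcripts 2.11, adjusted p = 0.0326). Without the whole of RNA 2 of day 0, NM_001159548 gained relative to the others by 3.16 (adjusted p = 0.00150), and NM_010264 had a relative difference of -2.46 (adjusted p = 0.00255) and NM_001159549 of -0.70 (adjusted p = 0.0407). In that fit day 0 is 1 RNA sample, which is assumed to vary like those of day 4. The transcripts are of nearly equal length (5877 and 5941 bases in GENCODE), share most of their sequence and have 46.6% and 47.2% GC, and the division of reads between them is an estimate by RSEM.

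**Figure D3:**
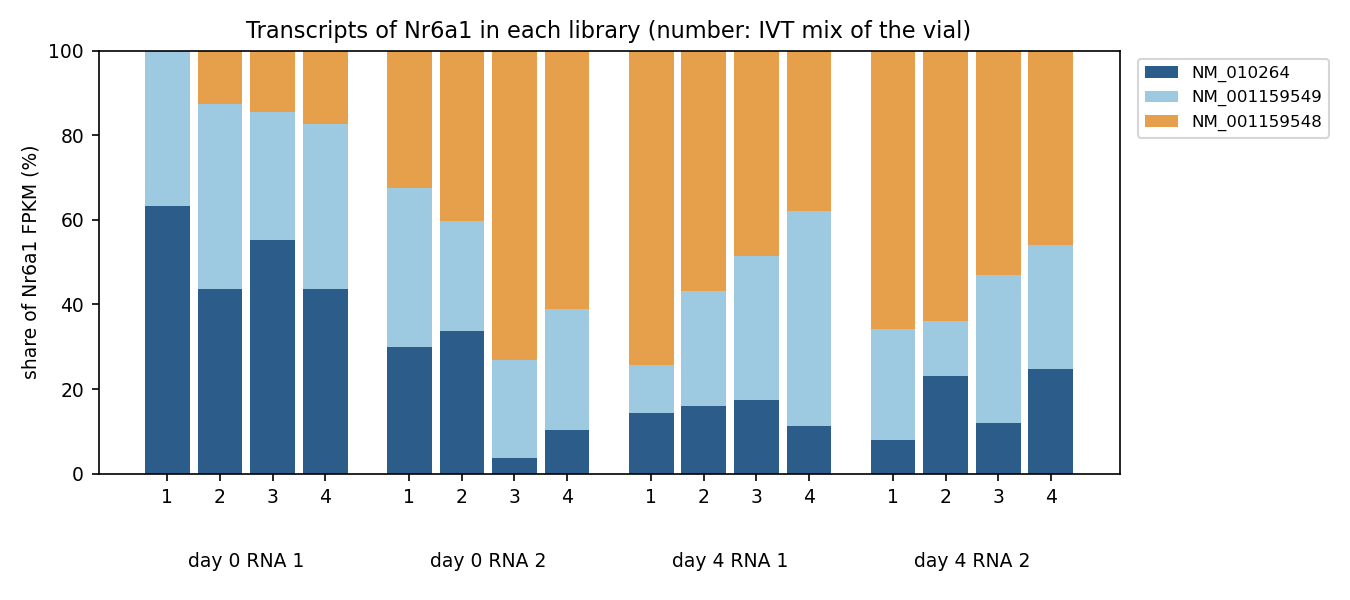
Share of each of the 3 RefSeq transcripts in the FPKM of Nr6a1 in percent (vertical axis) for each library (horizontal axis, vials numbered by IVT mix within each RNA sample). NM_010264 takes 43.6% to 63.3% in RNA 1 of day 0 and at most 33.6% in every other library, and NM_001159548 takes at least 32.4% in all libraries except those of RNA 1 of day 0.

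Nr2f6 lies on chromosome 8 (71374118 to 71381967), and its RefSeq transcript NM_010150 has the highest GC content of the members. The vials of day 0 gave 9.02, 6.70, 6.78 and 6.89 FPKM in RNA 1 and 5.32, 4.68, 0.934 and 0.948 FPKM in RNA 2, and those of day 4 gave 3.40, 4.21, 4.97 and 3.60 FPKM in RNA 1 and 2.55, 2.99, 2.49 and 3.50 FPKM in RNA 2. The mix 3 and mix 4 vials of RNA 2 of day 0 were below all vials of day 4, while 5 of the other 6 vials of day 0 were above all of them. The log2 difference was -0.44 (SE 0.52, adjusted p = 0.533). Without the vials that stood apart it was -0.81 (adjusted p = 0.0754), and after the correction for GC content it was 1.19 in the other direction, and called (adjusted p = 0.00667). No direction is given for Nr2f6.

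Nr5a2 lies on chromosome 1 (136842562 to 136960448). The vials of day 0 gave 1.24, 1.15, 1.31 and 1.35 FPKM in RNA 1 and 1.267, 1.376, 1.495 and 1.461 FPKM in RNA 2. Those of day 4 gave 2.38, 2.00, 2.16 and 1.96 FPKM in RNA 1 and 2.31, 2.23, 2.54 and 1.77 FPKM in RNA 2. All vials of day 4 were above all vials of day 0, and the ratio of the means was 1.63. The log2 difference of 0.67 (SE 0.23) missed the threshold at an adjusted p of 0.0980. It passed without the vials that stood apart (0.71, adjusted p = 0.0151) and after the GC correction (0.80, adjusted p = 0.0491). All of the signal was assigned to NM_001159769, and NM_030676 was listed at 0 in all 16 libraries. Extraembryonic endoderm is a site of Nr5a2 expression. Some of its markers were higher at day 4 and Sox7 was lower, as given with the marker lists. Their part in this value was not tested.

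Nr0b1, on the X chromosome (86191775 to 86195947), was the lowest receptor at day 4. It was measured at 0.461, 0.183, 0.183 and 0.179 FPKM in RNA 1 and 0.213, 0.246, 0.256 and 0.242 FPKM in RNA 2 of day 0. At day 4 it was at 0.069, 0.173, 0.345 and 0.278 FPKM in RNA 1 and 0.369, 0.295, 0.182 and 0.149 FPKM in RNA 2. The days overlapped, and the log2 difference was -0.06 (SE 0.16, adjusted p = 0.797). Its sign turned under each of 3 other scalings (0.03 to 0.16). At these levels the vials of 1 RNA differed from each other by more than the means of the days.

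**Figure D4:**
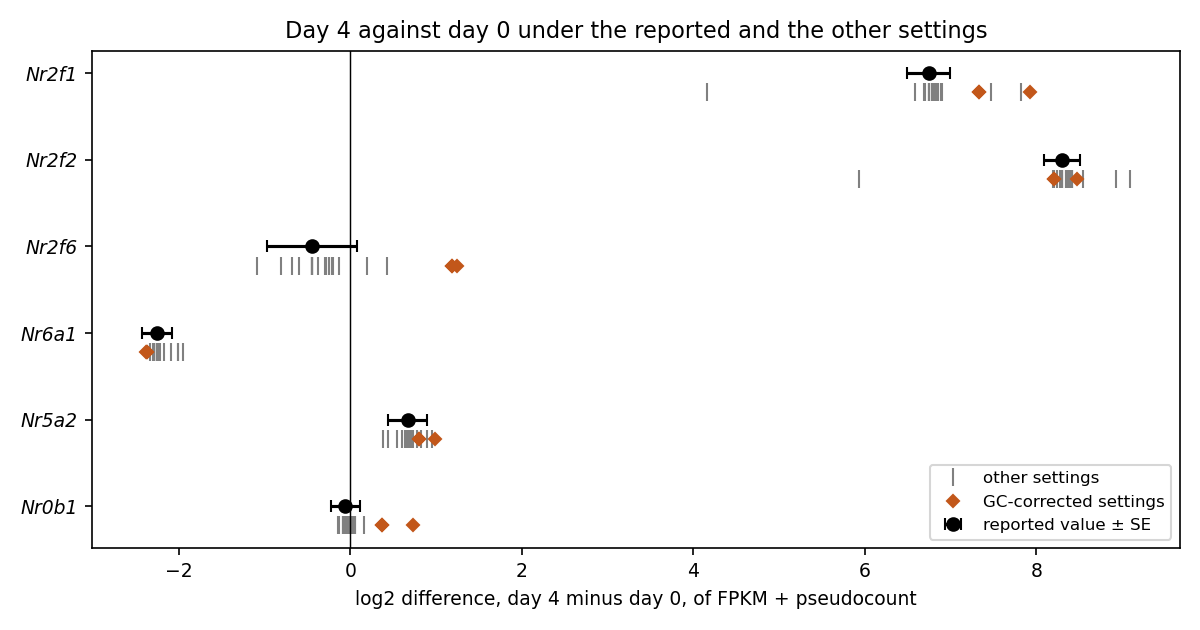
Log2 difference of each receptor gene, day 4 minus day 0, on the scale of log2(FPKM + offset) (horizontal axis), as reported with its SE (black), with GC correction (diamonds) and under the other settings (grey ticks). Nr2f1 and Nr2f2 stay above 4 and Nr6a1 below -1.9 under every setting, Nr5a2 stays between 0.39 and 0.99, and Nr2f6 and Nr0b1 lie on both sides of 0.

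The genes whose profile over the 4 RNA samples lay nearest to that of each receptor are given as a description. Likeness was the Euclidean distance of log2(FPKM + 0.1), centred per gene, among 11583 genes of at least 1 FPKM. For Nr2f2 the nearest were Alcam, a cell adhesion molecule (distance 0.119), and Rarb, a retinoic acid receptor (0.255), and for Nr2f1 Npr3, a natriuretic peptide receptor (0.104), and Meis1, a homeodomain factor (0.243). Rarb went from 0.195 ± 0.00707 to 107 ± 0.753 FPKM and Meis1 from 0.715 ± 0.0180 to 87.6 ± 0.369 FPKM. Tcfl5 (0.0868) and Heatr1 (0.0960) were nearest to Nr6a1, and fell from 13.4 ± 1.73 to 2.65 ± 0.166 FPKM and from 55.2 ± 1.55 to 11.7 ± 0.0265 FPKM. For Nr5a2 they were Obi1 (0.0264) and Colec12 (0.0306), for Nr2f6 Arhgef40 (0.0333) and Pigt (0.0411), and for Nr0b1 Atxn7l1 (0.0114) and Gm8234 (0.0269).

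Of 18 other orphan receptor genes, 17 were tested, of which 3 were called higher and 3 lower, with a median log2 difference of -0.06 beside -0.03 over all genes. These counts are near the shares over all genes, of which 16% were called higher and 14.5% lower. Esrrg, an estrogen-related receptor, rose by 4.48 (0.0284 ± 0.00230 to 2.77 ± 0.215 FPKM), and Nr2c2, the testicular receptor TR4, by 1.10 (8.17 ± 0.677 to 17.6 ± 0.737 FPKM). Nr4a1, an immediate early gene, had a log2 difference of -3.80 (5.24 ± 2.85 to 0.254 ± 0.0256 FPKM). Esrrb, an estrogen-related receptor that sustains the naive pluripotent state, had one of -1.79 (0.802 ± 0.352 to 0.151 ± 0.0240 FPKM). With the replicate as a block, 4 were called higher and 5 lower, in a fit that called 22.5% of all genes higher and 29.1% lower. Of the list, 8 genes were below 1 FPKM in every RNA sample.

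Of 15 retinoid receptor and RA response genes, 6 were called higher and 2 lower (median 0.24), beside 16% and 14.5% of all genes. Rarb rose by 8.504 and Dhrs3, a retinaldehyde reductase, by 6.72 (0.788 ± 0.304 to 91.3 ± 14.1 FPKM). Cyp26a1, which degrades RA, had a log2 difference of -2.50 (50.7 ± 2.46 to 8.88 ± 0.646 FPKM). Cyp26b1, which also degrades RA, rose by 5.59 (0.323 ± 0.153 to 19.5 ± 0.288 FPKM). Rxrg, a retinoid X receptor, had a log2 difference of -1.997 (0.964 ± 0.257 to 0.163 ± 0.00194 FPKM). The other receptors of the list were not called, with log2 differences of -0.57 for Rara, -1.34 for Rarg, 0.24 for Rxra and -1.23 for Rxrb. After the GC correction these were 0.93, -0.03, 1.59 and 0.38, Rara, Rxra and Rxrb were called higher (adjusted p of 0.0161, 0.00162 and 0.0295), and 10 genes of the list were called higher and 2 lower, where 27.7% of all genes were called higher and 24.4% lower. With the replicate block 7 were higher and 5 lower, and Rarg and Rxrb were called lower (adjusted p of 0.00239 and 0.00448), beside the shares of all genes given above for that fit.

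Of 17 pluripotency genes, 14 were called lower (median -2.37), beside 14.5% of all genes, and Klf2, Klf4 and Tcl1 were not called. The largest differences were those of Tdgf1, a Nodal coreceptor, with -6.71 (51.36 ± 7.997 to 0.388 ± 0.0355 FPKM), and Pou5f1. Of 16 nuclear receptor cofactors, 8 were called higher and 3 lower (median 0.68), beside 16% and 14.5% of all genes. Zfpm2, a cofactor of GATA factors that also binds COUP-TFII, rose by 5.03 (0.192 ± 0.0111 to 9.45 ± 0.246 FPKM), and Bcl11a, a COUP-TF interacting repressor, by 3.53 (0.392 ± 0.0292 to 5.58 ± 0.492 FPKM). Dnmt3b, a DNA methyltransferase that Nr6a1 is known to recruit to Pou5f1, had a log2 difference of -4.06 (35.4 ± 5.88 to 2.02 ± 0.00760 FPKM), and Mbd3, a subunit of the NuRD repressor complex, of -3.13 (36.3 ± 28.6 to 3.53 ± 1.61 FPKM). Dnmt3a and Mbd2, of the same families, were called higher, with log2 differences of 1.06 and 1.17. Mbd3 and Dnmt3a were close to the threshold (adjusted p of 0.0483 and 0.0489, limma). After the GC correction Mbd2 was not called (2.04, adjusted p = 0.0620). With the replicate block 8 cofactors were higher and 5 lower, in the fit that called 22.5% of all genes higher and 29.1% lower.

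**Figure D5:**
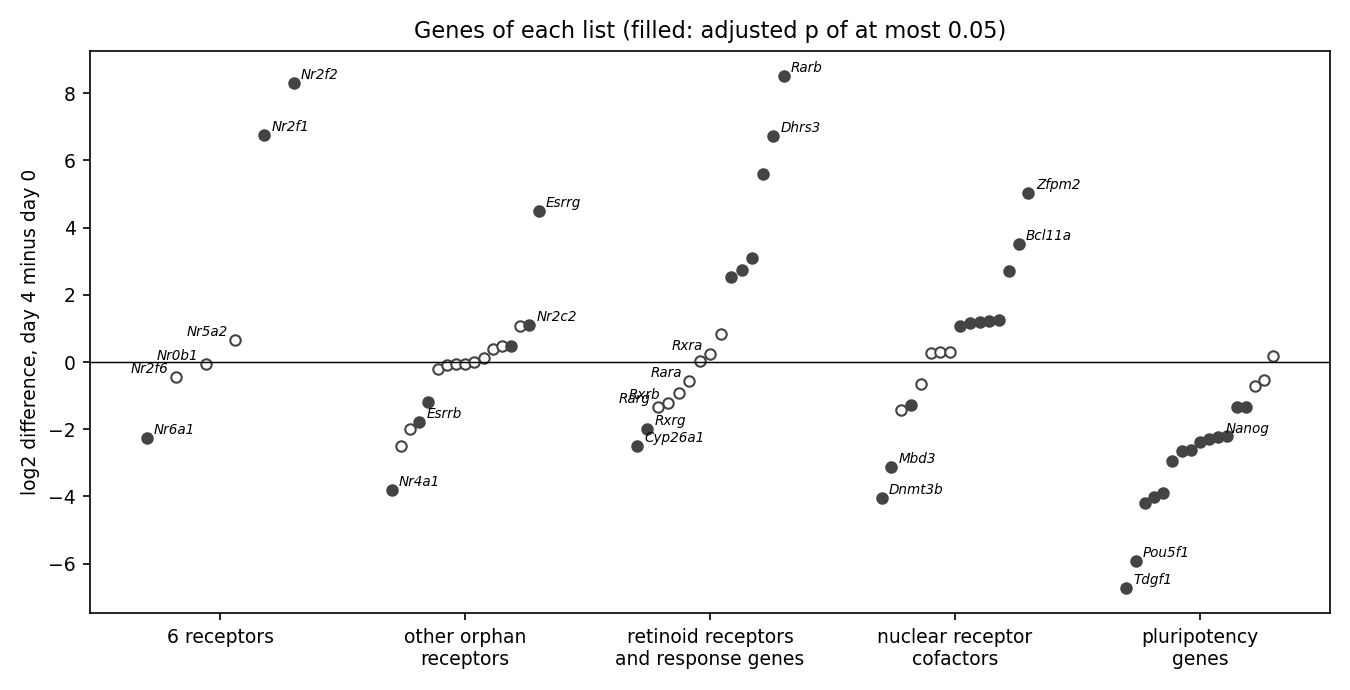
Log2 difference, day 4 minus day 0 (vertical axis), of the 6 receptors and of each tested gene of 4 lists (columns), ordered by value within a list, with filled circles for genes at an adjusted p of at most 0.05. Of the pluripotency genes 14 of 17 are filled and all of these lie below 0, while the other lists have filled circles on both sides of 0.

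The labels call the cells embryonic stem cells, and lists of cell type markers were read in the same RNA. Beside the counts of the reported fit, 16% of all genes were called higher and 14.5% lower. Of 5 markers of pluripotent cells 4 were called lower at day 4, and their summed level went from 104 and 51.2 FPKM in the day 0 RNAs to 4.999 and 3.758 FPKM in the day 4 RNAs. At day 0 markers of early mesoderm were present next to them, with 118 and 104 FPKM in sum. Of these 5 markers 4 were called lower at day 4. T (brachyury) went from 67.0 ± 8.07 to 0.0190 ± 0.00672 FPKM. The sums at day 4 were 29.6 and 31.7 FPKM, nearly all of it from Foxf1, which was not called. Foxf1 went from 22.5 ± 0.828 to 30.5 ± 1.46 FPKM. Of 8 markers of extraembryonic endoderm, 5 were called higher and 1, Sox7, lower. The sum went from 21.2 and 19.9 FPKM to 84.3 and 84.1 FPKM. Gata6, at 54.4 ± 1.79 FPKM, and Gata4, at 18.6 ± 1.94 FPKM, made up most of the day 4 sums. Sox17 went from 2.14 ± 0.277 to 1.56 ± 0.372 FPKM. Sox17 and Ttr were not called, but Ttr was called after the GC correction (log2 difference 0.68, adjusted p = 0.0411, limma). Of 5 neural progenitor markers 1 (Pax6) was higher and 2 (Sox1 and Sox3) were lower, with sums of 24.5 and 19.6 FPKM against 18.9 and 20.9 FPKM, and after the GC correction 1 was higher and 1 lower, Sox1 no longer being called (log2 difference -0.24, adjusted p = 0.574, beside -0.55 and 0.0285). Sox1 was at 0.0451 ± 0.0101 FPKM and Pax6 at 0.372 ± 0.0744 FPKM at day 4. Nes, which was not called, made up most of the sums of this list. It was at 22.9 and 18.7 FPKM at day 0 and at 18.3 and 20.4 FPKM at day 4. Of 5 neuronal markers 1 (Dcx) was higher and 3, among them Tubb3 and Stmn2, were lower, with sums of 29.6 and 17.0 FPKM against 10.3 and 9.64 FPKM. Endothelial markers were lower in 2 of 5 (Kdr and Tek), with sums of 72.6 and 63.5 FPKM against 38.7 and 35.8 FPKM. Blood markers were higher in 2 of 5 (Hba-x and Hbb-y) and lower in 2 (Gata1 and Tal1), with sums of 67.0 and 48.8 FPKM against 185 and 130 FPKM. With the replicate block, 2 neural progenitor and 2 neuronal markers were called higher, beside 22.5% of all genes. The part that a change in the makeup of the EBs may have in the differences of the receptors was not tested.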

How the data were processed

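Per the labels and the study's methods, the authors prepared the libraries from total RNA, aligned the reads with Bowtie2 2.1.0 to RefSeq transcripts of mm10 and spike-ins, estimated abundance with RSEM 1.2.18 and deposited FPKM per transcript, scaled by a TMM factor per library. These FPKM sum to 411090 to 622888 per library. The table holds no fragment numbers per transcript, so no counting error is given. All 16 columns were mapped by sample titles, and vials to RNA samples by the study's supplement.

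FPKM of the 4 vials of an RNA were averaged, since they are splits of it. Of 33702 RefSeq transcripts, 99.2% matched a gene symbol. The spike-in rows were left out, as was the gene whose spike-in the study set aside for a concentration error. RefSeq transcripts of the other spike-in genes stayed in. Rorb, the gene of a spike-in, was left out of the list of other orphan receptors only. Genes at 0 throughout were dropped. Tests used limma 3.58.1 in R 4.3.3 (lmFit, eBayes with a trend, diffSplice) on log2(FPKM + 0.1) with Benjamini-Hochberg adjustment, and the fits were tested on simulated data. There 200 of 20490 genes changed, fewer than were called in the data. The gene fit recovered 0% of changes of 1 on the log2 scale, 10% of 2, 72% of 4 and 88% of 6. A receptor that was not called may therefore still have changed. The rest used Python 3.11.15.

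The study repeated its procedure to obtain the replicates, so the replicate numbers may pair the RNA samples of the days, but it does not state this. The replicate differences of the days correlated at r = 0.541 over 14094 transcripts. The study's tests of differential expression name no replicate term (its regression of spike-ins has one), so the reported fit has none.

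The GC correction subtracts, on the log2 scale, each library's median deviation in 20 bins of GC content over 13893 transcripts, and beyond the last bin the value of that bin. It can also remove biological differences linked to GC content. GC content and transcript coordinates come from GENCODE vM21, promoters from RefSeq.

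Genes named besides the 6 members are the up to 2 highest and 2 lowest called genes of each list, all retinoid receptors, Pou5f1 and Nanog, and the 2 genes nearest to each member. Klf2, Klf4, Tcl1, Foxf1, Nes, Gata4, Sox17, Ttr, Cyp26b1, Dnmt3a and Mbd2 were named after their values were seen. The members and lists were chosen with earlier results of these data known. Alternatives covered pseudocounts, filters, variance models, scalings, the block, subsets of vials and each RNA sample left out, and 3 settings were added after seeing the data.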

Additional observations from a re-analysis of the deposited data

Results flagged for a closer look

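In each of the 4 RNA samples the 4 vials of each receptor gene were searched for a vial far from the other 3, by the gap to its neighbour as a share of the range. Of 24 such groups, 3 held one, where chance gives about 1 in 20. In RNA 2 of day 0 the mix 3 vial had 0.177 FPKM of Nr2f1, and the other vials had 0.039 to 0.049 FPKM. In RNA 1 of day 0 the mix 1 vial had 9.02 FPKM of Nr2f6, and the others had 6.70 to 6.89 FPKM. In the same mix 1 vial Nr0b1 was at 0.461 FPKM, and in the others of RNA 1 at 0.179 to 0.183 FPKM. The mix 1 vial of RNA 1 also had the highest deviation of GC-rich transcripts of all 16 libraries, 1.98 on the log2 scale, and its part in these values was not tested.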

How the results depend on the processing

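Of 23 other settings, 20 were set with the design and 3 were added after seeing the data. Nr2f1, Nr2f2 and Nr6a1 had the reported direction and were called in 20 of the 22 settings that apply to genes. The exceptions were the settings without 1 RNA of day 4, where 0 genes were called either way by limma although 4932 and 4716 passed an unadjusted p of at most 0.05. Over the settings without 1 RNA sample the log2 difference was 6.58 to 6.90 for Nr2f1, 8.19 to 8.41 for Nr2f2, -2.34 to -2.17 for Nr6a1, 0.60 to 0.74 for Nr5a2, -1.08 to 0.20 for Nr2f6 and -0.13 to 0.014 for Nr0b1. In these settings 0 to 3674 genes were higher, 0 to 5558 lower, 0 to 7795 transcripts were called, and 122 to 3682 in the test of unequal change.

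Nr5a2 was called without a variance trend (0.67), with the libraries fitted singly and the RNA as random block (0.66), without the mix 3 and mix 4 vials of RNA 2 of day 0 (0.71), and with the GC correction, alone (0.80), with the replicate block (0.80) or without those vials (0.99). Nr2f6 turned positive with the mix 4 vials alone (0.43) and with the GC correction (1.19, 1.19 with the block and 1.25 without those vials). Nr0b1 turned positive with scaling by the median of ratios (0.058), to the same library sum (0.16) or by quantiles (0.032), with the ERCC mix 2 vials alone (0.058), and with the GC correction (0.37, 0.37 with the block and 0.73 without those vials, the last with an adjusted p of 0.0327). Over the settings without 1 RNA sample NM_001159548 differed by -2.21 to 0.11, the latter without RNA 2 of day 0. In the test of unequal change NM_001159549 lay between -0.70 and 0.039 in these settings, positive without RNA 1 of day 0, and was also positive with the mix 4 vials alone (0.14). The causes were not tested.

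Pairing the RNA samples by a replicate block gave 5969 lower genes beside 2971, 10050 transcripts beside 5321 and 2445 unequal changes beside 1245, and changed no call of the 6 receptors. Without the mix 3 and mix 4 vials of RNA 2 of day 0 the counts were 5549 higher and 6881 lower genes, 14423 transcripts and 4059 unequal changes. With the GC correction they were 5666, 5000, 10170 and 2070, with the block added 6103, 5594, 10602 and 3067, and without those vials 6918, 6153, 14704 and 4744. The mix 4 vials alone gave 1044, 368, 298 and 462. The ERCC mix 2 vials gave 1760 lower genes and 3458 transcripts, the random block 4580 lower genes, a minimum of 1 FPKM 2093 higher genes and 261 unequal changes, and a pseudocount of 0.01 gave 754 of the latter. A fit with a spread for each transcript called 7, and since it recovered none of the changes in simulated data it says nothing about the others.

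The table does not give the fragments behind each FPKM, so no counting error can be set beside Nr0b1 and the day 0 levels of Nr2f1 and Nr2f2, all below 0.5 FPKM. Nr2f6 had the largest SE of the 6 receptors (0.52).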
